A study of Homo sapiens with 6 samples.

Results

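The genes described here are 46 genes of the G2 phase and mitosis, taken by symbol from a table of 22701 genes: mitotic cyclins and kinases, and genes of the spindle, the kinetochore and cytokinesis. All 46 were in the table, and all 46 had a mean of at least 1 FPKM (fragments per kilobase of gene, scaled to the library's total), the level required for testing. The rule that chose them goes by symbol and uses no measured value, but the list was drawn up with earlier results of these data known. The data are polyadenylated RNA libraries of LX-2, an established human hepatic stellate cell line immortalised with the SV40 large T antigen, a viral protein that binds the RB and p53 tumour suppressors. Every library is from LX-2 cells that had TGF-β, at 5 μg/mL as the submitters state it. In 3 libraries it was given alone, and in the other 3 with 20 μM ligustilide (LIG). The comparison asks how LIG alters transcript levels in cells that have TGF-β. Cells without TGF-β were not analysed here, the labels give no treatment time, and whether the replicates are separate cultures is not stated, so the p-values reflect the spread of these libraries, which may be technical.

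Cells enter mitosis when cyclin B binds the kinase CDK1 and CDC25 phosphatases remove the inhibitory phosphates that WEE1 and PKMYT1 put on it. Polo-like and Aurora kinases then build the spindle, kinetochores attach the chromosomes to it, and the spindle checkpoint holds back the anaphase-promoting complex until all are attached. Transcripts of most of these genes are low in resting cells and in G1 and accumulate in G2, under the MuvB complex with its partners B-MYB (MYBL2) and FOXM1, which act through promoter elements called CHR. Stellate cells are quiescent in the healthy liver and divide once activated.

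The libraries held between 38401783 and 39260090 fragments. TGF-β replicate 2 and LIG replicate 3 stood apart from the other 4 on the first principal component of all tested genes (55.1% of the variance), so results are also given without both, a comparison chosen after seeing the data. All 10 stellate and fibroblast markers searched were above 1 FPKM, summing to between 3148 and 3726 FPKM per library. Markers of hepatocytes, endothelial cells and macrophages summed to between 0.348 and 4.89 FPKM, with SERPINA1 the single one above 1 FPKM. Cholangiocyte markers, of which KRT7 and SOX9 were above 1 FPKM, summed to between 11.2 and 13.9 FPKM.

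No change of a G2 or mitosis gene was detected with LIG. None of the 46 passed (limma, Benjamini-Hochberg adjusted p from 0.598 to 1.00, two-sided), against 0.692% of the 10695 genes tested (0.187% higher and 0.505% lower with LIG). None had an unadjusted p below 0.05, which 8.41% of all genes tested had. Log2 changes, on the log2(FPKM + 1) scale, ran from -0.14 for ANLN to 0.17 for PTTG1. Their median was 0.03, as was that of all genes tested. A limma voom fit on fragment numbers, another analysis of the same libraries, called 0 of the 46 as well, against 0.72% of all genes, with 0 of the 46 at an unadjusted p below 0.05, against 8.27%. In bulk samples, fewer cells in mitosis and less of such RNA per cell cannot be told apart.

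The intervals show what size of change the values of each single gene leave room for. For 39 of the 46 genes the 95% interval of the change, not adjusted for the number of genes, lay wholly within a 1.25-fold rise or fall, as it did for 68.0% of all genes tested. The other 7 were CKS1B, CKS2, ASPM, UBE2C, PTTG1, ANLN and MKI67. For 45 of 46 the interval lay within 1.5-fold, and for all 46 within 2-fold. The exception at 1.5-fold was MKI67, whose interval ran from -0.48 to 0.67 on the log2 scale. The members held from 951 to 39642 fragments per library, so counting error was small for each.

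**Figure D1:**
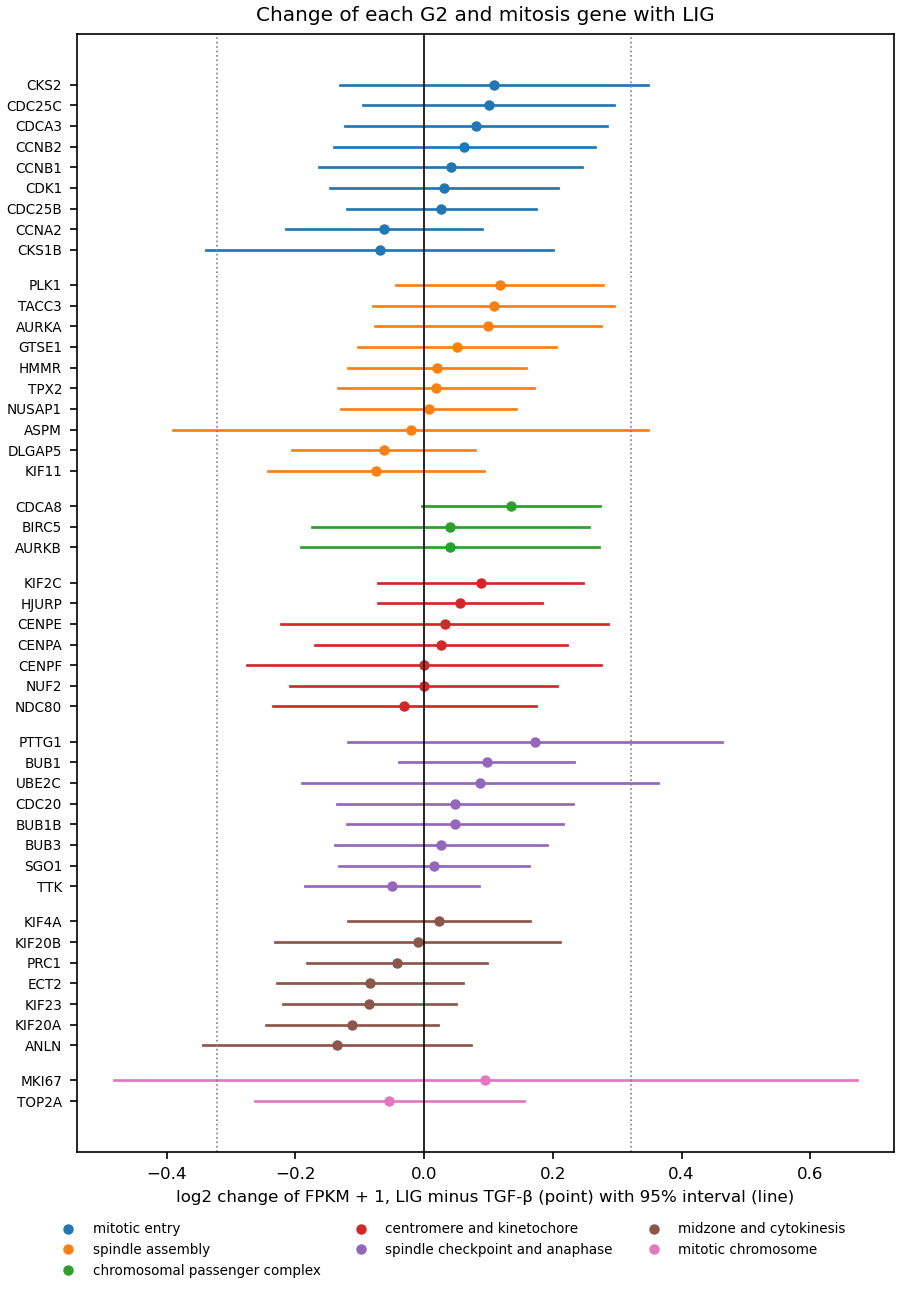
Log2 change of each of the 46 genes, LIG minus TGF-β on the log2(FPKM + 1) scale (points), with its 95% interval (lines), grouped and coloured by role; dotted lines mark a 1.25-fold change in either direction. Every interval includes 0, and 39 of 46 lie between the dotted lines.

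In the sum of these transcripts the groups overlapped through a single library. Members took 0.899%, 0.890% and 0.894% of the fragments in TGF-β replicates 1 to 3. In LIG replicates 1 to 3 they took 0.907%, 0.907% and 0.877%. The 3 TGF-β shares lay between the lowest and the highest LIG share. That overlap rests on LIG replicate 3, which stood apart. The shares of LIG replicates 1 and 2 lay above all 3 TGF-β shares. The difference between the groups was not tested.

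The promoters of these genes share sequence elements that the choice of members did not use. RefSeq promoter windows (GRCh38.p14, from 250 bases before to 50 after the gene's start) were matched by symbol for 40 of the 46, all but AURKA, TPX2, BIRC5, BUB3, TTK and UBE2C. Each window was searched on both strands for the CHR hexamer TTTGAA with its variants TTTAAA and also TTCGAA, and for the CCAAT box, to which the factor NF-Y binds. The hexamers TTTAAA and TTCGAA read the same on both strands, and none of the motifs contains another. A CHR hexamer was found in 35 of 40 members (87.5%) and in 25.1% of 35116 promoters of the same length. Within 50 bases of the start the shares were 72.5% and 8.2%. A CCAAT box was found in 31 of 40 (77.5%) and in 34.6% of all promoters, and both elements in 29 of 40 (72.5%) and in 9.7%. Among the 99 further G2 and mitosis genes with a window, 49.5% held a CHR hexamer, 53.5% a CCAAT box and 30.3% both. Among 35 S phase genes with a window the shares were 20.0%, 54.3% and 11.4%. A match is a description of the letters and not a measured binding site.

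Of the promoters, 5 are shown, from 5′ to 3′ in the gene's direction, with CHR hexamers and CCAAT boxes of either strand in capitals (on the other strand CCAAT reads ATTGG and TTTGAA reads TTCAAA). CCNB2 and CDC20 are shown as a cyclin and a checkpoint target with several of both elements, CDCA8 and KIF20A as the genes with the smallest p among those with a change above and below 0, and PTTG1 as the gene with the change farthest from 0. All 5 lie on the plus strand, at chr15:59104896-59105195 (CCNB2), chr1:43358731-43359030 (CDC20), chr1:37692266-37692565 (CDCA8), chr5:138178862-138179161 (KIF20A) and chr5:160421605-160421904 (PTTG1).
CCNB2: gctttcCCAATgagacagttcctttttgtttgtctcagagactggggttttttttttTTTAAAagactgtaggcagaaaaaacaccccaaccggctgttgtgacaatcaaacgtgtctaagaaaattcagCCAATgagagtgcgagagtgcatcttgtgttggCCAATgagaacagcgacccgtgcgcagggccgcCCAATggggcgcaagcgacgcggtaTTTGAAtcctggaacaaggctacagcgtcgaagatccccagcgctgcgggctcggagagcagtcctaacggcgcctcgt
CDC20: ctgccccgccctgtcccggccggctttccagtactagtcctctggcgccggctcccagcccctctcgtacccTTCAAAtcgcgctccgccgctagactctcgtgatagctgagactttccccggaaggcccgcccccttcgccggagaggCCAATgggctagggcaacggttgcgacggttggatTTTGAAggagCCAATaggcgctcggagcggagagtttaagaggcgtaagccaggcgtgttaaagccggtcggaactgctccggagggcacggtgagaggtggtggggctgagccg
CDCA8: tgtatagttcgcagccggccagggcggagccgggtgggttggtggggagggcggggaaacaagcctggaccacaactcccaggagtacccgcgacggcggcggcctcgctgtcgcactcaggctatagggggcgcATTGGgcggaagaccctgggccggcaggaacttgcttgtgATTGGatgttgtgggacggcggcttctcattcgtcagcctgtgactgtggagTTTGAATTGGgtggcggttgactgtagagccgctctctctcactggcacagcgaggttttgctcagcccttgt
KIF20A: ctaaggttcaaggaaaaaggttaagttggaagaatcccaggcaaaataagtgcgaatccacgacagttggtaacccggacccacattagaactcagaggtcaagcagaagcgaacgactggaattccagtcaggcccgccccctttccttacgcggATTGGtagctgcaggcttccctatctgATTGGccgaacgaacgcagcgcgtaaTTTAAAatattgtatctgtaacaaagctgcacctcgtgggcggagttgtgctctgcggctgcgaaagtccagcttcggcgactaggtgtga
PTTG1: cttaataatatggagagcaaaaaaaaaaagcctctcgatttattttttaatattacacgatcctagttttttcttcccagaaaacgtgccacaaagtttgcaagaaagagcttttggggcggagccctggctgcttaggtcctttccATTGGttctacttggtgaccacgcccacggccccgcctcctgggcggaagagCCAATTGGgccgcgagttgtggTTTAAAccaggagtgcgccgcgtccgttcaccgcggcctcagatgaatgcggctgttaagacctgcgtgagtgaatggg
In CCNB2 the CHR hexamer TTTGAA starts 29 bases before the gene's start, downstream of 3 CCAAT boxes spaced 33 bases apart. The CHR hexamer nearest the start begins 65 bases before it in CDC20, 23 in CDCA8, 41 in KIF20A and 29 in PTTG1. KIF20A and CDCA8, neither of which passed, both hold several CCAAT boxes and a CHR hexamer, as 87.5% of the members with a window hold a CHR hexamer. In CDCA8 the CHR hexamer and a CCAAT box of the other strand overlap, and in PTTG1 a pair of CCAAT boxes on opposite strands does.

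**Figure D2:**
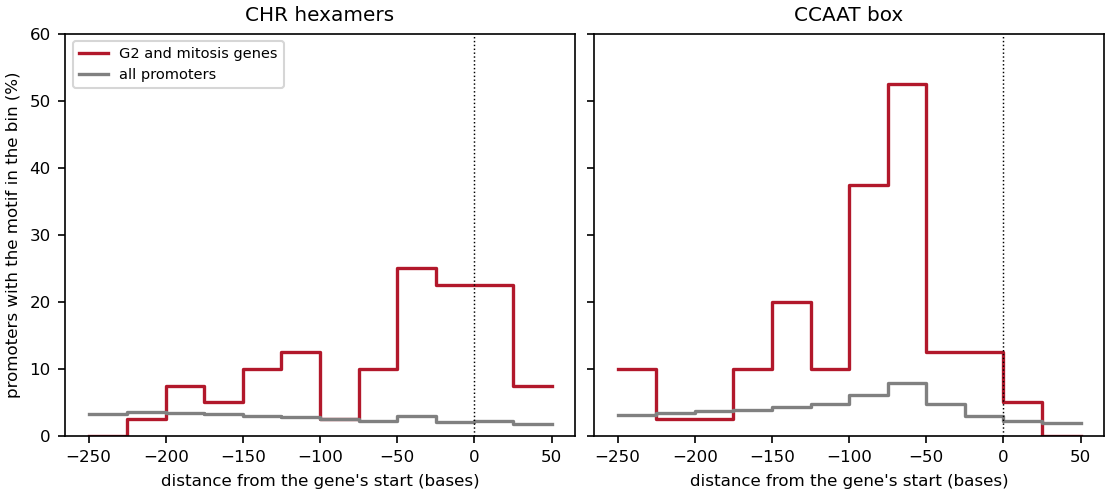
Share of promoters (%) with a CHR hexamer (left) or a CCAAT box (right) in each 25-base bin, by distance from the gene's start in bases, for the 40 members with a promoter window and for all 35116 promoters. Among members, CHR hexamers are most frequent from 50 bases before the start to 25 after it (22.5% to 25% per bin) and CCAAT boxes from 75 to 50 bases before it (52.5%), against at most 7.84% per bin among all promoters.

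Genes of mitotic entry, which include the most abundant member, CCNB1, showed no separation of the groups in any of 9 members. Over all genes tested, the groups did not overlap in 15.8%. CCNB1, which encodes cyclin B1, the main activating partner of CDK1 (chromosome 5, 69167010 to 69178245), measured 245, 272 and 247 FPKM in replicates 1 to 3 of TGF-β alone, against 250.2, 249 and 289 FPKM in the LIG replicates 1 to 3. CCNB2, its cyclin B2 relative (chromosome 15, 59105078 to 59125045), measured 72.4, 82.7 and 72.6 FPKM with TGF-β alone, against 74.1, 76.5 and 87.5 FPKM with LIG added. In both cyclins, TGF-β replicate 2 and LIG replicate 3 were the highest libraries of their groups and the groups overlapped. The log2 changes were 0.04 ± 0.09 (SE) for CCNB1 and 0.06 ± 0.09 for CCNB2 (limma adjusted p = 0.973 and 0.944).

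CDK1, the kinase that drives entry (chromosome 10, 60778331 to 60794852), measured 57.5, 66.9 and 61.0 FPKM with TGF-β alone, against 64.2, 59.5 and 65.7 FPKM with LIG added. Its log2 change was 0.03 ± 0.08, with an interval from -0.15 to 0.21 (limma adjusted p = 0.978). CKS2, a small subunit that docks CDK1 to its substrates (chromosome 9, 89311198 to 89316703), measured 221, 247 and 214 FPKM with TGF-β alone, against 229.6, 227 and 281 FPKM with LIG added. LIG replicate 3 was its highest library, and the other 2 LIG libraries lay between TGF-β replicates 1 and 2. CDC25C, one of the phosphatases that activate CDK1 (chromosome 5, 138285265 to 138338355), measured 9.59, 9.80 and 10.3 FPKM with TGF-β alone, against 10.3, 9.78 and 12.1 FPKM with LIG added. LIG replicate 3 was again its highest library, and LIG replicates 1 and 2 lay within the range of the TGF-β libraries. Without LIG replicate 3 the log2 change moved from 0.10 to 0.02 for CDC25C and from 0.11 to 0.01 for CKS2. The other 4 genes of the group, CCNA2 (cyclin A2), CDC25B, CKS1B and CDCA3, had log2 changes between -0.07 and 0.08.

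Genes of spindle assembly had log2 changes between -0.08 and 0.12 in 10 members. PLK1, the polo-like kinase of centrosome maturation and spindle assembly (chromosome 16, 23677656 to 23690367), measured 42.1, 40.3 and 42.6 FPKM with TGF-β alone, against 42.4, 45.0 and 48.6 FPKM with LIG added. The groups overlapped at the lowest LIG library only, and the log2 change of 0.12 ± 0.07 did not pass (limma adjusted p = 0.755). It was 0.07 without LIG replicate 3 and 0.04 without both libraries that stood apart. AURKA, the Aurora kinase of the spindle poles (chromosome 20, 56369389 to 56392337), measured 64.9, 70.3 and 64.6 FPKM with TGF-β alone, against 66.7, 70.4 and 77.3 FPKM with LIG added. TACC3, an AURKA substrate that stabilises spindle microtubules (chromosome 4, 1721490 to 1745176), measured 27.7, 30.6 and 28.2 FPKM with TGF-β alone, against 29.3, 29.8 and 34.6 FPKM with LIG added. In both, LIG replicate 3 was the highest of the 6 libraries and the groups overlapped (limma adjusted p = 0.833 and 0.826). Without LIG replicate 3 the log2 change moved from 0.10 to 0.04 for AURKA and from 0.11 to 0.03 for TACC3.

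DLGAP5 (HURP), a protein that bundles the microtubules of kinetochore fibres, was lower in every LIG library (chromosome 14, 55148112 to 55191678). It measured 82.3, 87.5 and 82.0 FPKM with TGF-β alone, against 79.4, 79.5 and 82.0 FPKM with LIG added, and the log2 change of -0.06 ± 0.06 did not pass (limma adjusted p = 0.895). The values of TGF-β replicate 3 and LIG replicate 3 lay within rounding of each other, so the groups barely separated. TPX2, HMMR, NUSAP1, GTSE1, KIF11 and ASPM, the other genes of spindle organisation, had overlapping groups.

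The chromosomal passenger complex corrects faulty chromosome attachments and later directs cytokinesis. CDCA8, which encodes its subunit borealin (chromosome 1, 37692418 to 37709719), measured 26.8, 27.6 and 26.6 FPKM with TGF-β alone, against 28.4, 30.5 and 30.4 FPKM with LIG added. All 3 LIG libraries lay above all 3 TGF-β libraries. This was the smallest p among the 46 genes, with LIG higher by 0.13 ± 0.06 on the log2 scale, and it did not pass (limma adjusted p = 0.598; from 0.131 to 1.00 over the alternative fits).

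Its partners in the complex did not separate. AURKB, the kinase of the complex (chromosome 17, 8204733 to 8210600), measured 35.1, 38.9 and 36.4 FPKM with TGF-β alone, against 33.2, 37.3 and 43.7 FPKM with LIG added. Its lowest and its highest library were both LIG libraries. BIRC5 (survivin; chromosome 17, 78214186 to 78225636) measured 61.6, 70.0 and 66.2 FPKM with TGF-β alone, against 63.6, 63.4 and 77.2 FPKM with LIG added. The log2 change was 0.04 for both, and without LIG replicate 3 it was -0.06 for AURKB and -0.05 for BIRC5.

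Of the 7 genes of the centromere and kinetochore, HJURP separated the groups (14.3%, against 15.8% of all genes tested). HJURP, the chaperone that loads the centromeric histone CENPA (chromosome 2, 233833416 to 233854566), measured 31.0, 30.8 and 31.4 FPKM with TGF-β alone, against 32.1, 32.0 and 32.7 FPKM with LIG added. The difference was small, a log2 change of 0.06 ± 0.06 (limma adjusted p = 0.898). KIF2C, a kinesin that takes apart wrongly attached microtubules (chromosome 1, 44739818 to 44767767), measured 28.7, 31.6 and 30.2 FPKM with TGF-β alone, against 31.2, 30.9 and 34.2 FPKM with LIG added. CENPF, a large kinetochore protein (chromosome 1, 214603195 to 214664588), measured 30.7, 25.7 and 29.6 FPKM with TGF-β alone, against 31.6, 31.2 and 23.7 FPKM with LIG added. CENPF was thus lowest in TGF-β replicate 2 and LIG replicate 3, and its group means of 28.7 and 28.8 FPKM were nearly the same. CENPA, CENPE, NDC80 and NUF2 had log2 changes between -0.03 and 0.03.

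Genes of the spindle checkpoint and of anaphase had a change above 0 in 7 of 8 members, as 60.9% of all genes tested had. In 1 of the 8, BUB1, every LIG library was higher, which held for 9.07% of all genes tested. BUB1, a checkpoint kinase at the kinetochore (chromosome 2, 110637698 to 110678114), measured 47.4, 46.6 and 45.2 FPKM with TGF-β alone, against 51.1, 49.6 and 48.5 FPKM with LIG added. Its log2 change of 0.10 ± 0.06 did not pass (limma adjusted p = 0.760). BUB3, a checkpoint protein whose transcript is also present in cells that do not divide (chromosome 10, 123154277 to 123170467), measured 29.3, 33.4 and 30.8 FPKM with TGF-β alone, against 31.1, 30.7 and 33.4 FPKM with LIG added. CDC20, the activator of the anaphase-promoting complex that the checkpoint inhibits (chromosome 1, 43358955 to 43363203), measured 65.2, 72.0 and 64.6 FPKM with TGF-β alone, against 65.6, 67.5 and 75.9 FPKM with LIG added. For BUB3 and CDC20 the groups overlapped, with log2 changes of 0.03 ± 0.07 and 0.05 ± 0.08.

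PTTG1, which encodes securin, the inhibitor of separase that is destroyed at anaphase (chromosome 5, 160421822 to 160428744), had the change farthest from 0. It measured 61.0, 76.7 and 62.5 FPKM with TGF-β alone, against 69.2, 68.3 and 89.0 FPKM with LIG added. TGF-β replicate 2 lay above LIG replicates 1 and 2, so the groups overlapped, and the log2 change of 0.17 ± 0.13 did not pass (limma adjusted p = 0.820). The size of the change rested on single libraries: leaving out LIG replicate 3 gave 0.05, leaving out TGF-β replicate 2 gave 0.27, and omitting the first TGF-β replicate gave 0.11. Without TGF-β replicate 2 and LIG replicate 3 together the change was 0.15 and passed (adjusted p = 0.0408; from 0.0408 to 1.00 over the alternative fits), 1 of 46 members (2.17%) in a comparison that called 4.65% of all genes tested. That share is no higher than the background. PTTG1 has 2 near copies in the annotation, PTTG2 and PTTG3P, and how shared reads were counted is not given in the sources used here.

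Of the 7 roles into which the members were sorted, that of the spindle midzone and cytokinesis separated the libraries most often, all downwards. In 4 of 7, KIF20A, KIF23, ANLN and ECT2, every LIG library lay below every TGF-β library, which held for 6.73% of all genes tested. Over all 46 members this held for 5. The roles were chosen with earlier results of these data known, and this role is singled out for its values. The shares are therefore a description and not a test of the role. None of the 4 passed. The median log2 change of the 7 members of this role was -0.08. It was -0.04 without both libraries that stood apart and -0.09 with each library's trend on gene length removed. KIF20A, a kinesin that carries the passenger complex to the midzone (chromosome 5, 138178719 to 138187715), measured 57.1, 55.9 and 58.2 FPKM with TGF-β alone, against 52.5, 53.8 and 51.7 FPKM with LIG added. The log2 change was -0.11 ± 0.06 (limma adjusted p = 0.691). Exons of KIF20A overlap those of BRD8 and CDC23 on the opposite strand, and the use of strand in counting is not given in the sources used here.

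KIF23, the kinesin subunit of centralspindlin, which bundles midzone microtubules, measured 82.4, 82.0 and 83.2 FPKM with TGF-β alone, against 79.0, 78.1 and 76.2 FPKM with LIG added. ECT2, the exchange factor that turns on RHOA at the cleavage furrow, measured 28.6, 29.5 and 28.1 FPKM with TGF-β alone, against 28.1, 27.6 and 25.5 FPKM with LIG added. KIF23 and ECT2, like DLGAP5, are given by library because their groups did not overlap, a choice made after their values were seen. Their log2 changes were -0.09 ± 0.06 and -0.08 ± 0.06 (limma adjusted p = 0.802 and 0.826). For ECT2 the lowest TGF-β library and the highest LIG library were nearly equal, and its change was -0.04 without LIG replicate 3 and -0.03 without both libraries that stood apart. ANLN, the scaffold protein anillin of the contractile ring (chromosome 7, 36389806 to 36453791), measured 117, 115 and 118 FPKM with TGF-β alone, against 114, 113 and 92.4 FPKM with LIG added. Most of its change of -0.14 ± 0.09 came from LIG replicate 3, and without that library it was -0.04 (-0.05 without both that stood apart). KIF20B, KIF4A and PRC1 had overlapping groups.

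In all, the groups did not overlap in 8 of the 46 genes (17.4%), against 15.8% of all genes tested. Of these, 3 were higher with LIG (9.07% of all genes tested were) and 5 lower (6.73%).

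**Figure D3:**
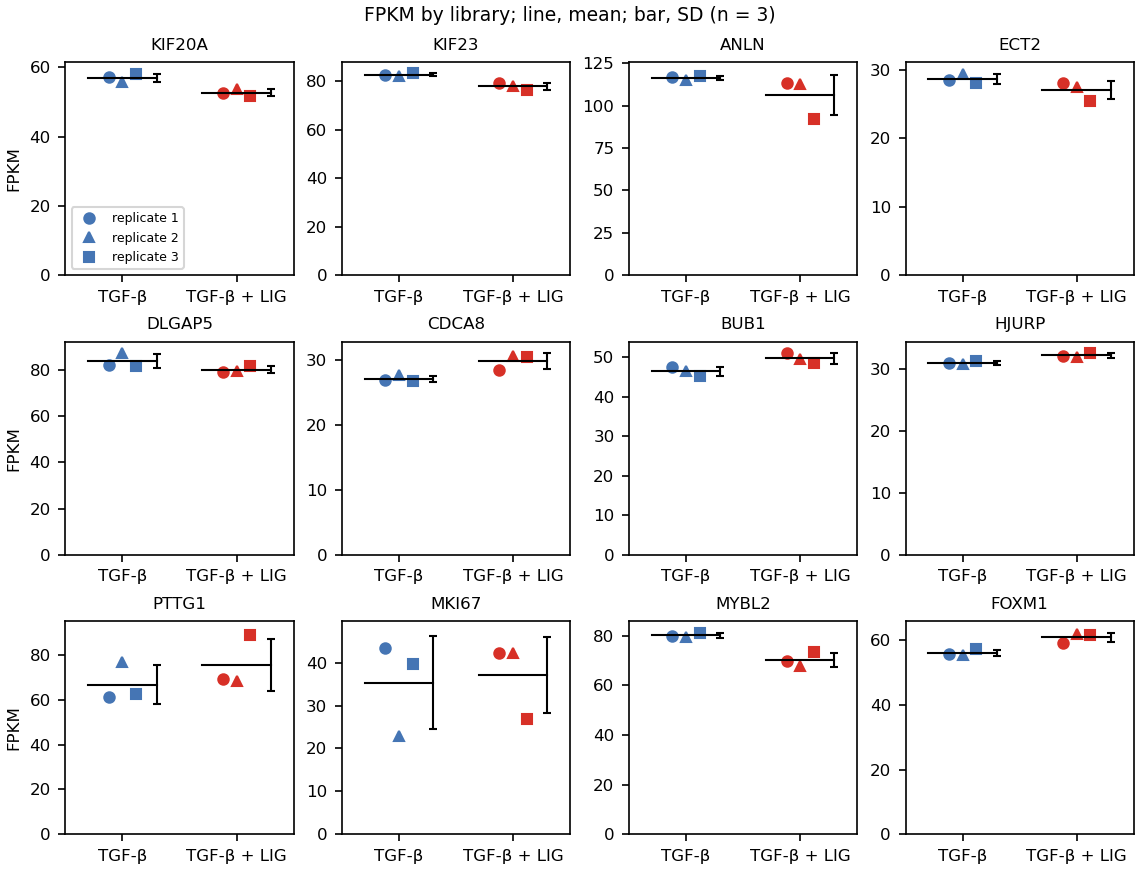
FPKM of 10 members and of the regulators MYBL2 and FOXM1 in each library (symbols mark the replicate), with the group mean (line) and SD (bar, n = 3), axes from 0. KIF20A, KIF23, ANLN, ECT2 and DLGAP5 lie lower and CDCA8, BUB1 and HJURP higher in all 3 LIG libraries, while PTTG1 and MKI67 overlap; none of the 12 genes passed.

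Both genes of the mitotic chromosome were lowest in libraries that stand apart. TOP2A, the topoisomerase that untangles sister chromatids (chromosome 17, 40388516 to 40417950), measured 171, 165 and 172 FPKM with TGF-β alone, against 176, 172 and 143 FPKM with LIG added. MKI67, which encodes the proliferation marker Ki-67 (chromosome 10, 128096659 to 128126385), measured 43.3, 22.9 and 39.6 FPKM with TGF-β alone, against 42.2, 42.3 and 27.0 FPKM with LIG added. In MKI67, TGF-β replicate 2 and LIG replicate 3 lay far below the other 4 libraries, which held between 39.6 and 43.3 FPKM. Its log2 change was 0.09 ± 0.25 (limma adjusted p = 0.979), the widest error of the 46 genes. Without TGF-β replicate 2 the change was -0.18 and without LIG replicate 3 it was 0.30.

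Within each group, the members varied between libraries with gene length. The 4 members over 8000 bases by the length used for FPKM, MKI67 (13228 bases), ASPM (10863), CENPF (10410) and CENPE (8609), were all lower in TGF-β replicate 2 than in the mean of TGF-β replicates 1 and 3, by a median of -0.24 on the log2 scale. The same 4 were lower in LIG replicate 3 than in the mean of LIG replicates 1 and 2, by a median of -0.49. The 8 members under 2000 bases, CKS2, CKS1B, UBE2C, CENPA, PTTG1, CCNB2, CDC20 and AURKB, were all higher in these libraries, by medians of 0.18 and 0.30. Across the 46 members, log2 length and the difference had a Pearson r of -0.73 in TGF-β replicate 2 (Spearman rho -0.71) and of -0.84 in LIG replicate 3 (rho -0.86). Over all 10695 genes tested r was -0.56 and -0.67. These are descriptions across genes of the same libraries, and genes are not independent replicates.

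ASPM, which organises spindle poles, shows the pattern in one long gene, with 24.4, 19.6 and 23.2 FPKM in replicates 1 to 3 of TGF-β alone, against 25.2, 25.3 and 16.5 FPKM in LIG replicates 1 to 3. UBE2C, the ubiquitin-conjugating enzyme of the anaphase-promoting complex, shows it in a short one (1224 bases), with 102, 126 and 109 FPKM with TGF-β and 109.8, 109.9 and 141 FPKM with LIG. The libraries that are low for ASPM are the high ones for UBE2C, and both genes were picked as examples after their values were seen. The change between groups was less tied to length, with an r of -0.25 across the members and of -0.12 across all genes tested. Fits that remove this length pattern are described after the plots, by counts and medians over the members.

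**Figure D4:**
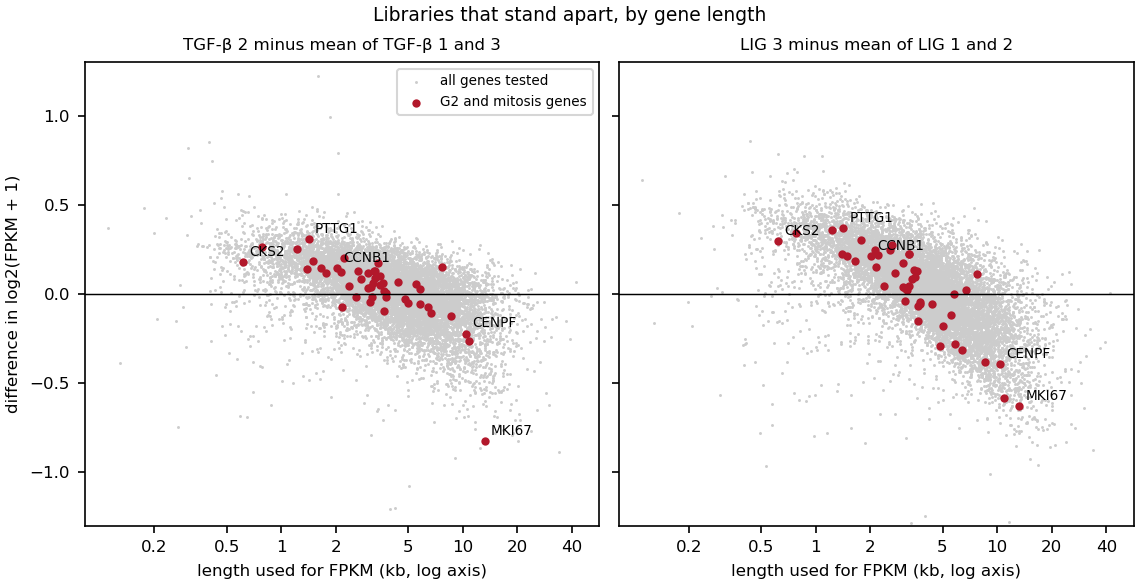
Difference in log2(FPKM + 1) of TGF-β replicate 2 from the mean of TGF-β replicates 1 and 3 (left) and of LIG replicate 3 from the mean of LIG replicates 1 and 2 (right), against the gene length used for FPKM (kb, log axis), for all genes tested (grey; 3 genes lie outside the axis) and the 46 members (red). Members fall from short to long genes in both panels (r of -0.73 and -0.84), and MKI67 is the lowest member in each.

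**Figure D5:**
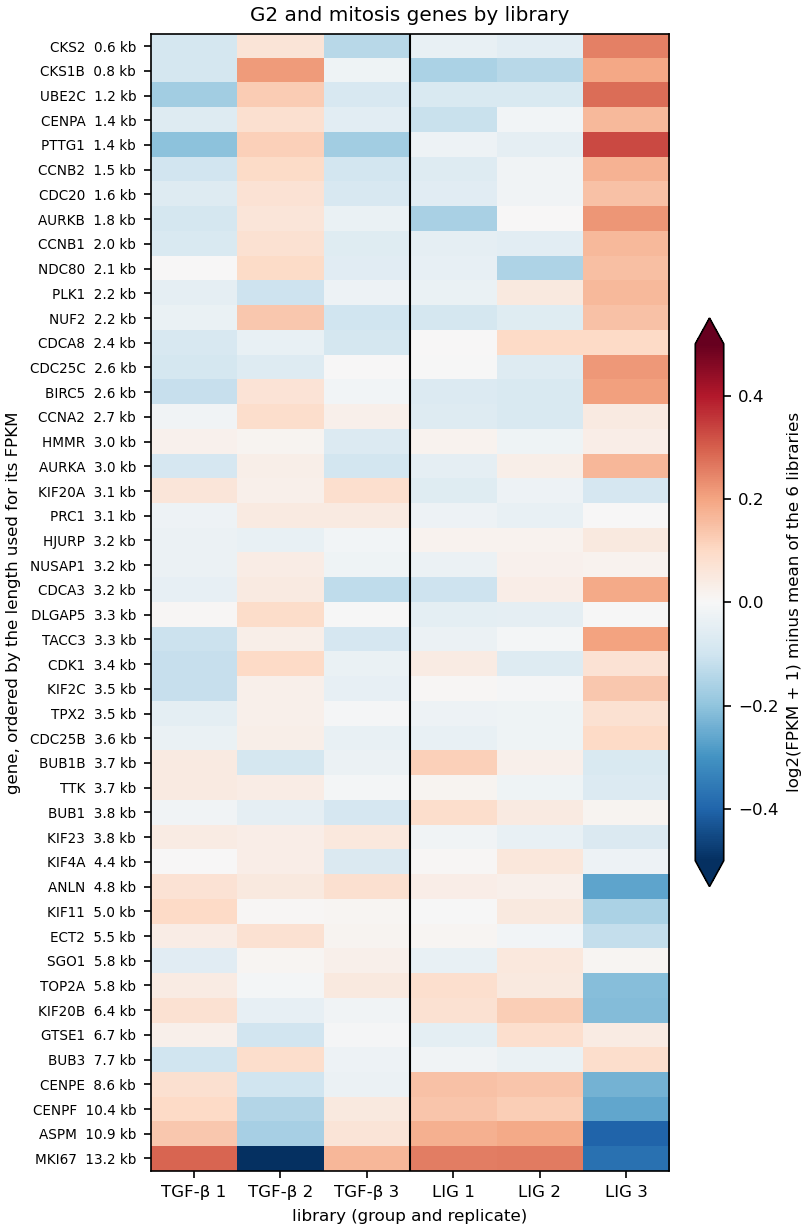
Log2(FPKM + 1) of the 46 genes in each library minus the mean of the 6 libraries (colour, red higher and blue lower), ordered from the shortest gene at the top to the longest; colours end at 0.5 in either direction. TGF-β replicate 2 and LIG replicate 3 turn from red to blue down the list. LIG replicate 3 is the highest library for 21 of the 46 genes and the lowest for 11, against 37.2% and 23.8% of all genes tested.

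With the length trend of each library removed, an alternative added after seeing the data, the median SE of the members fell from 0.077 to 0.050. Over all genes tested it fell from 0.082 to 0.068. Again 0 of 46 passed, while 2.62% of all genes tested did. At an unadjusted p below 0.05 there were 6 of 46, CCNA2, CKS1B, DLGAP5, KIF20A, KIF23 and PTTG1, against 13.8% of all genes tested. In this fit 45 of 46 intervals lay within 1.25-fold, all but that of MKI67. Without both libraries that stand apart, 7 of 46 had an unadjusted p below 0.05 (15.2%), against 20.4% of all genes tested, and all 46 intervals lay within 1.25-fold. Those libraries were left out because they deviated from their groups, so narrower intervals follow from the choice. The median SE was then 0.038 for the members and 0.057 for all genes tested.

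Regulators upstream of these genes were also measured. MYBL2, which encodes the B-MYB partner of MuvB, measured 80.0, 79.3 and 81.0 FPKM with TGF-β alone, against 69.6, 67.6 and 73.2 FPKM with LIG added. All 3 LIG libraries were lower, and the log2 change of -0.19 ± 0.06 did not pass (limma adjusted p = 0.378, among the 4 genes of its list with an unadjusted p below 0.05). MYBL2 passed in fits added after seeing the data. These were the fit with the length trend removed (-0.23, limma adjusted p = 0.0337), which called 2.62% of all genes tested, and the fit without both outlying libraries (-0.23, limma adjusted p = 0.0077), which called 4.65%. It passed in no other alternative. The limma adjusted p was from 0.136 to 0.997 with 1 library left out, 0.888 with the replicate number as a block and 0.389 with voom. FOXM1, the forkhead factor that follows B-MYB on these promoters, measured 55.8, 55.3 and 57.2 FPKM with TGF-β alone, against 59.1, 61.8 and 61.7 FPKM with LIG added. FOXM1 thus lay higher in all 3 LIG libraries, where MYBL2 lay lower, and its change of 0.12 ± 0.06 did not pass (limma adjusted p = 0.678).

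WEE1, the kinase that restrains CDK1, measured 10.6, 12.4 and 11.0 FPKM with TGF-β alone, against 11.6, 11.0 and 11.1 FPKM with LIG added. MAD2L1, the checkpoint protein that binds CDC20, measured 24.1, 27.8 and 25.9 FPKM with TGF-β alone, against 24.9, 23.6 and 28.6 FPKM with LIG added. Neither separated the groups (limma adjusted p = 0.991 for both).

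Further genes of G2 and mitosis were tested in the same fit. Of 113 listed (subunits of the anaphase-promoting complex, other checkpoint and kinetochore genes, condensin and cohesin, other spindle and centrosome genes, and regulators of transcription and entry), 112 were tested and 0 passed by limma (0.692% of all genes tested did), with 4 at an unadjusted p below 0.05 (8.41% of all). Their median log2 change was 0.01, and their changes ran from -0.19 to 0.20. Groups did not overlap in 13 of the 112 (11.6%, against 15.8% of all genes tested), 8 higher (9.07% of all) and 5 lower (6.73% of all). Of 40 genes of DNA replication and S phase, 0 passed by limma and 2 had an unadjusted p below 0.05, against the same shares of all genes. Their median log2 change was -0.04, with 26 of 40 below 0 against 16 of 46 members, and 10 of the 40 lay lower in every LIG library (6.73% of all genes tested did). The difference between these lists was not tested.

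By level, the members spanned from 6.31 ± 0.223 FPKM (SD, n = 3) for SGO1, the protector of centromeric cohesion, with TGF-β to 255 ± 15.2 FPKM for CCNB1. In the LIG group the ends were SGO1 at 6.39 ± 0.235 and CCNB1 at 263 ± 22.8 FPKM. CKS2 came next, at 227 ± 17.2 and 246 ± 30.1 FPKM, and lay below CCNB1 in every library. TOP2A followed at 169 ± 3.82 and 164 ± 17.9 FPKM. TPX2, the activator of AURKA on spindle microtubules, was at 136 ± 3.58 and 138 ± 5.47 FPKM. Since short and long genes differed between libraries, the order of genes of unlike length can differ with the libraries taken.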

How the data were processed

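The authors deposited FPKM values, 1 column per library, per the file headers. Per the submitters' processing notes, fastp, HISAT2 2.1.0, GRCh38.p13 and DESeq2 were named, without roles; how reads were counted, on which annotation and with or without strand, is not given in the sources used here. The members, roles and other lists were chosen with earlier results of these data known. The limma package, version 3.58.1, was run on log2(FPKM + 1) of the 10695 genes with a mean of at least 1 FPKM over the 6 libraries (group only, empirical Bayes with trend, two-sided, Benjamini-Hochberg at 0.05), in R 4.3.3. No scaling between libraries was added. The fold changes understate changes of low genes. The fit was also run on simulated data, drawn independently for each gene and library. The simulation held no pattern by library or gene length, so it does not vouch for the p-values or intervals given here. An exact permutation test of 3 against 3 cannot go below 0.1, so none was used for single genes.

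FPKM values were whole multiples of a step, from which fragments and the gene length the authors divided by were recovered for the 10695 genes, within 0.01 of a whole fragment. These fragments gave depth, length and the limma voom alternative. Gene positions and exon overlaps came from GENCODE release 29 (GRCh38). Of the members, 17 have exons overlapping another gene and 11 have a pseudogene or copy of their name, which leaves reads shared between them uncertain. Promoters came from RefSeq (GRCh38.p14). Values by library were given for members that pass, the 2 with the smallest p in each of 7 roles and 11 members and 4 regulators fixed by name; other genes are named where a count or pattern rests on them.

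Alternatives were other filters and a pseudocount of 0.1, rescaling to TPM, median centring, the replicate number as a block, and each library left out. Leaving out both libraries that stand apart, voom and removal of the length trend (lowess of each library's deviation on log2 length) were added after seeing the data.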

Additional observations from a re-analysis of the deposited data

How the results depend on the processing

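Of 31 genes given by library, 17 kept the sign of their change in all 15 alternatives and 14 did not, with no adjusted p below 0.291 where the sign changed. The count over all genes, 74 by limma, was 14 with no filter on low values, 497 without both libraries that stand apart, 280 with the length trend removed and from 11 to 93 with 1 library left out. Members that passed numbered 1 without both libraries and 0 in the other alternatives. Of the other G2 and mitosis genes, 2 passed without both libraries and 1 with the length trend removed, and of the S phase genes 3 and 1, in fits that called 4.65% and 2.62% of all genes tested. The members' median change was 0.001 to 0.0416 with 1 library left out.

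The replicate numbers were not taken as pairs. Deviations from the group means correlated at 0.469, -0.574 and -0.337 for numbers 1, 2 and 3, and not every library correlated best with its own number (TGF-β replicate 2 and LIG replicate 3 at 0.675). With the replicate number as a block, 22 genes and 0 members passed.

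Signs changed without both libraries to -0.0082 for BIRC5, 0.0205 for TOP2A, -0.0207 for AURKB, 0.0563 for CENPF, 0.0844 for ASPM and 0.0574 for WEE1, and with the length trend removed to -0.0001 for CCNB1, -0.0037 for AURKB and 0.0114 for CENPF. With 1 library left out, the change ran from -0.0517 to 0.0882 for BIRC5, from -0.1089 to 0.0391 for TOP2A, from -0.1805 to 0.305 for MKI67, from -0.0178 to 0.0891 for CDK1, from -0.029 to 0.0898 for CCNB1 and from -0.0085 to 0.125 for CCNB2. It ran from -0.0608 to 0.1322 for AURKB, from -0.014 to 0.097 for CDC20, from -0.0744 to 0.1304 for CENPF, from -0.017 to 0.0757 for BUB3, from -0.0512 to 0.0509 for WEE1, from -0.12 to 0.1731 for ASPM, from -0.0321 to 0.1718 for UBE2C and from -0.0908 to 0.042 for MAD2L1. The cause of these shifts was not tested. With 3 libraries a group, changes within the intervals of the members could have been missed. The intervals are not adjusted for the number of genes, so larger changes could have been missed as well. MYBL2, whose interval ran from -0.33 to -0.05 on the log2 scale, did not pass in the main fit.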
